A study of Mus musculus with 4 samples.

Results

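The genes described here encode the ligands, receptors, Smads, binding proteins, antagonists and feedback targets of transforming growth factor beta (TGF-beta), bone morphogenetic protein (BMP), activin and myostatin signalling. They were chosen by name, 48 symbols in all, with earlier results of these data known, and looked up by exact symbol in the platform annotation. Of these, 47 had a probe set with a single symbol, out of 18193 such genes on the array. Myostatin itself (Mstn) had no probe set under its symbol in the annotation used and was not analysed here, although other members of its pathway were. For each gene the brightest of its probe sets, by mean over the arrays, was read. The 35 members with a mean signal at or above that of the median gene (178.8) were tested, and 12 fell below it and are described by their signals alone.

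The samples were C2C12 cells, an established mouse myoblast line that stops dividing and fuses into myotubes when serum is lowered. All groups were grown with 10% fetal bovine serum and moved to 2% horse serum, both in medium with 25 mM glucose, and RNA was taken after 48 h. The 2 control arrays received vehicle, 1 array received tranylcypromine (TC), an amine oxidase inhibitor, and 1 received S2101, known here by its code name. Both compounds inhibit LSD1 (Kdm1a), a demethylase of histone H3, no dose is given in the labels, and the study asked how LSD1 inhibition changes differentiating myoblasts. Separate cultures are not stated for the arrays. The p-values therefore rest only on the spread among these arrays, which between the 2 controls may be technical. In the comparison of both inhibitors with the controls, that spread also holds any gap between the TC and S2101 arrays. There each gene's variance was drawn largely from other genes, weighted as 8.08 degrees of freedom against 2 of its own. The 4 arrays limit the precision.

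Ligands of this family bind pairs of type I and type II serine/threonine kinase receptors, which phosphorylate receptor Smads that enter the nucleus with Smad4. TGF-beta and activins signal mainly through Smad2 and Smad3, and BMPs through Smad1, Smad5 and Smad9, whereas Smad6 and Smad7 are inhibitory. In muscle cells TGF-beta and myostatin are known to restrain myogenic differentiation, and BMP can turn C2C12 cells towards the osteoblast lineage. Secreted proteins such as follistatin, noggin and gremlin hold ligands away from receptors.

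With the inhibitors, 8 of the 35 tested members passed (limma, Benjamini-Hochberg adjusted p under 0.05 over all 9097 genes tested), against 8.01% of all genes. Inhbb, Grem1, Id2, Ltbp2 and Tgfbr1 were higher, and Fstl1, Inhba and Fst were lower. The 5 higher members stand beside 4.28% of all genes that passed in that direction, and the 3 lower ones beside 3.74%. Because the members were chosen with earlier results known, a count above these shares is not a test of the pathway. In 18 of the 35 members the 2 inhibitor signals lay outside the range of the controls on the same side, 8 above and 10 below, against 51.1% of all genes. Differences are given on the scale of log2(signal + 50), where the median over tested members was -0.01 and over all genes 0.01. The offset of 50 makes the change of dim genes look smaller than it was.

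**Figure D1:**
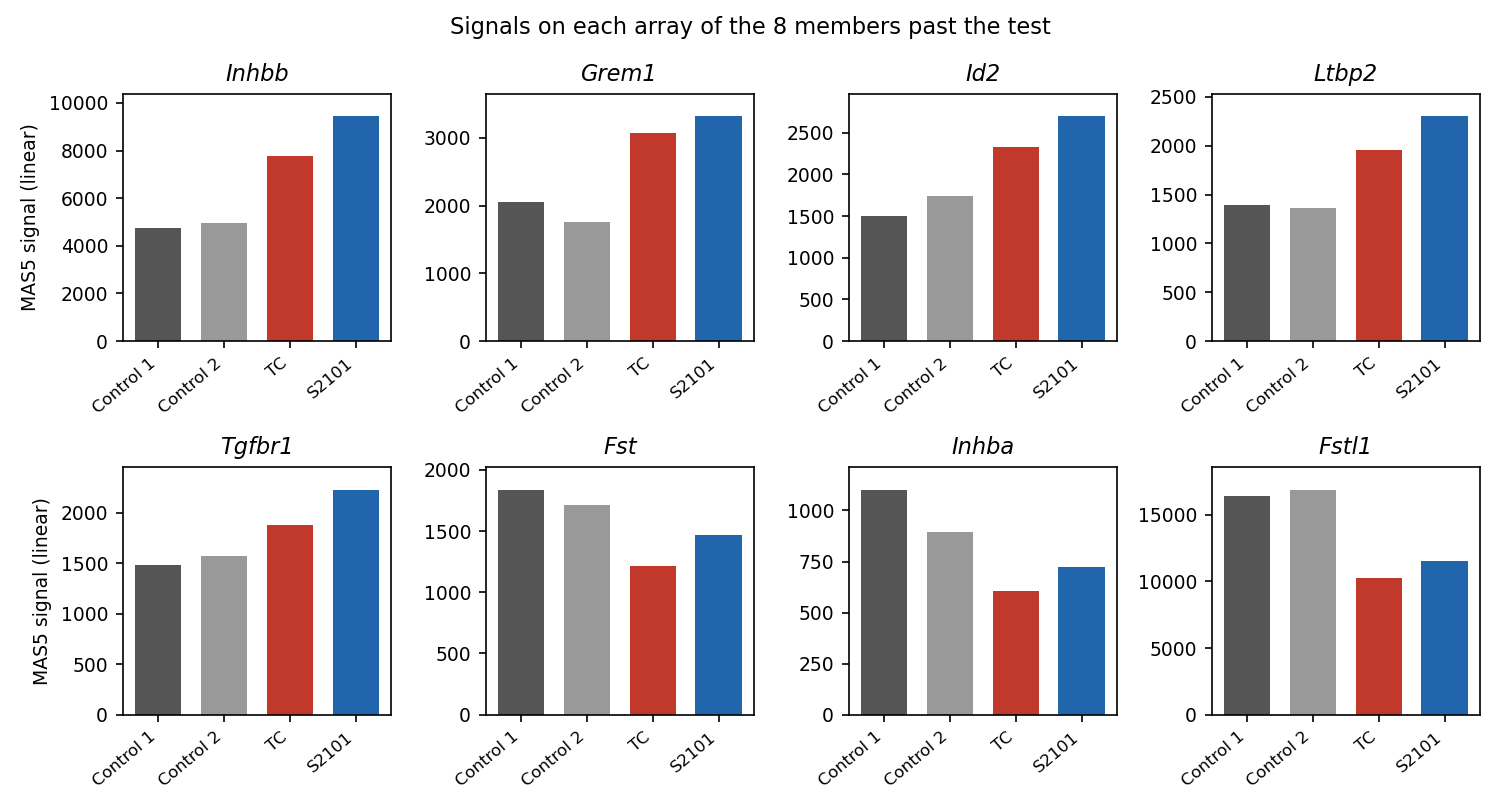
MAS5 signal (linear scale, bars from 0) on each of the 4 arrays for the 8 members past the test, 1 panel per gene with its own axis. Both inhibitor bars are above both control bars for Inhbb, Grem1, Id2, Ltbp2 and Tgfbr1 and below them for Fst, Inhba and Fstl1.

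Promoter sequence is shown for 5 of these 8 genes, the activin subunit genes Inhbb and Inhba, whose signals moved in opposite directions, and Grem1, Ltbp2 and Id2, which rose and whose windows hold letters recognised by Smads. Each is the 250 bases before the gene's start in RefSeq's GRCm38.p6 annotation, printed 5′ to 3′ along the gene. The windows are chr1:119422249-119422498 (minus strand) for Inhbb, chr13:16011601-16011850 (plus) for Inhba, chr2:113758649-113758898 (minus) for Grem1, chr12:84876492-84876741 (minus) for Ltbp2 and chr12:25096093-25096342 (minus) for Id2. Capitals mark matches to CAGAC or its reverse complement GTCTG, the core site of Smad3 and Smad4, and to GGCGCC, a GC-rich site of BMP Smads.
Inhbb: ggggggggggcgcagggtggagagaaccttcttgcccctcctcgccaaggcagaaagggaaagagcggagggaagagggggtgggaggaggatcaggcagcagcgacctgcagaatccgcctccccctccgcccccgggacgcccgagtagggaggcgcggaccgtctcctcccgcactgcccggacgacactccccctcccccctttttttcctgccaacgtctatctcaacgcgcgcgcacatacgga
Inhba: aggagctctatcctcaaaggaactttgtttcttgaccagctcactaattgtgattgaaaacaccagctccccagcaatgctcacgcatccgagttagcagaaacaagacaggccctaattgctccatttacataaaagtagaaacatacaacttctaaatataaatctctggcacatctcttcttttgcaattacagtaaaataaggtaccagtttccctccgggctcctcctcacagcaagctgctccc
Grem1: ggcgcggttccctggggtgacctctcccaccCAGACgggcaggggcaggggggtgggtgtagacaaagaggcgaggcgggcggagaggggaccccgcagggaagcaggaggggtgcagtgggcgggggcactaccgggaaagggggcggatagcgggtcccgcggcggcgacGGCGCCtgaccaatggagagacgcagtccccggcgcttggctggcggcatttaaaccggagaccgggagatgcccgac
Ltbp2: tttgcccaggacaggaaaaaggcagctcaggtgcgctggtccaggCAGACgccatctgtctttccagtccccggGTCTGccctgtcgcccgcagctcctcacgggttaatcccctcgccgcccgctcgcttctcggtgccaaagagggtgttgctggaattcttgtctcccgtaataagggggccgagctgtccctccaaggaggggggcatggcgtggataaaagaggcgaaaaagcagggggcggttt
Id2: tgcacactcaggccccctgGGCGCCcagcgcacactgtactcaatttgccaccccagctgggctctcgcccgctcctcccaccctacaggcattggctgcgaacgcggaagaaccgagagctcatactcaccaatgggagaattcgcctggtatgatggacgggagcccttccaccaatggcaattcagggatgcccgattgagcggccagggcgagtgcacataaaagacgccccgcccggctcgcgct

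The searched motifs were CAGAC and GGCGCC, and GTCTAGAC, the palindromic Smad box, each on both strands, and none of the 3 contains another. Grem1 held 1 CAGAC starting 219 bases before the start and 1 GGCGCC starting 78 bases before it. Ltbp2 held CAGAC at 205 and GTCTG at 176 bases before the start, and Id2 held GGCGCC at 231 bases. The windows of Inhbb, Inhba and Fstl1 held none of the 3, and of the 2 windows of Tgfbr1, 1 held GGCGCC and the other CAGAC. Fst had no matched entry. Among all 32851 windows of the same length, 42.2% held CAGAC, 9.59% GGCGCC and 0.167% GTCTAGAC. Over the 34 members with a matched window, 50% of genes held CAGAC and 29.4% GGCGCC, against 45.8% and 10.8% of all genes in the table. Of the 7 matched genes past the test, 3 (42.9%) held CAGAC, below the share of all genes, and 3 (42.9%) held GGCGCC. The members' windows had a median GC content of 65.4% against 52.4% over all windows. The part of GC content in the share of the GC-rich motif was not tested. A match is a description of these letters and not a measured binding site.

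Among the ligands, the 2 genes for activin subunits moved in opposite directions. Inhbb encodes the beta B subunit, which forms activin B, and its signal was 4729.6 and 4953 (controls), 7767 (TC) and 9448 (S2101). Both inhibitor arrays were well above both controls, a log2 difference of 0.82 ± 0.09 (SE, n = 2 and 2; 1.76-fold; adjusted p = 0.000642, limma). A second Inhbb probe set moved in the same direction by less (0.16), with signals of 412 and 445 on the controls and 447 and 523 on the inhibitor arrays. When the probe sets were averaged, the Inhbb difference was 0.49 and still passed.

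Inhba, for the beta A subunit of activin A, read 1103 and 896 in vehicle, and fell to 608 (TC) and 721 (S2101). The groups did not overlap, but the control arrays themselves differed by 0.29 on the log2 scale (control 2 below control 1). Inhba dropped by 0.55 (SE 0.12; 1.47-fold; adjusted p = 0.0233, limma), a call that ended without control 1 (-0.41; 0.106), without the TC array (-0.44; 0.103), when the intensity trend was dropped (0.0726) and without the filter on dim genes (0.126). It also ended with averaged probe sets (-0.26; 0.371), where the other set lies under the filter. The alpha subunit gene Inha, which turns beta subunits into inhibins, was dim, at 74.9 and 84.1 on the controls and 58.8 and 79.6 with the inhibitors.

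The TGF-beta ligands did not pass. Tgfb2 read 961 and 993 (controls), 751 (TC) and 917 (S2101), so that both inhibitor arrays were lower (-0.22 ± 0.11; adjusted p = 0.273, limma). Its other 2 probe sets above the filter stood at -0.38 and -0.32. Tgfb3 read 2153 and 1951 (controls), 1850.0 (TC) and 1802 (S2101), again lower on both inhibitor arrays (-0.16 ± 0.08; 0.289). Tgfb1 lay just under the filter, at 160 and 171 (controls), 166 (TC) and 205 (S2101), and was not tested. Bmp4, the BMP ligand bright enough to test, read 1251 and 1362 (controls), 1346 (TC) and 1416 (S2101), and the groups overlapped (0.08 ± 0.09; 0.670). Bmp2, Bmp5, Bmp6, Bmp7 and the myostatin relative Gdf11 were dim on every array.

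Of 9 tested receptors and co-receptors, Tgfbr1 rose and the other 8 did not pass. Tgfbr1, the type I TGF-beta receptor kinase (ALK5), read 1484 and 1571 (controls), 1876 (TC) and 2233 (S2101). All inhibitor signals were above all control signals (0.41 ± 0.10; 1.33-fold; adjusted p = 0.0287, limma). The call ended without control 1 (0.37; 0.095), without the S2101 array (0.29; 0.0948), without an intensity trend (0.0952), without the filter (0.121) and with averaged probe sets (0.13; 0.614), whose other sets were dim. Tgfbr2, the type II receptor that recruits it, read 10259 and 10679 on the controls and 12284 and 12274 with TC and S2101, with no overlap between groups. Its difference of 0.23 ± 0.06 just missed the threshold (adjusted p = 0.0535, limma) and passed with quantile normalization (0.0161) and with a stricter filter on dim genes (0.0497).

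The remaining receptors showed overlapping groups. The co-receptor betaglycan, Tgfbr3, stood at -0.02 ± 0.12, the BMP type I receptor Bmpr1a at 0.04 ± 0.07 and the BMP type II receptor Bmpr2 at 0.04 ± 0.07. Bmpr2 read 6009 and 5469.8 (controls), 5888 (TC) and 5928 (S2101). Acvr1 (-0.12), the activin type I receptor Acvr1b (0.09), the activin and myostatin type II receptor Acvr2a (-0.03) and the co-receptor endoglin, Eng (0.01), were close to 0 as well. Acvr2b, the other type II receptor for myostatin and activin, and Acvrl1 (ALK1) were dim. In the probe sets not used, Bmpr2 (-0.27), Acvr2a (-0.29) and 1 of the 3 other bright sets of Bmpr1a (-0.24) lay lower on both inhibitor arrays, unlike those tested. So did the other bright set of Acvr1 (-0.13), at a difference close to that of its tested set.

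No Smad passed. The 6 tested Smads had differences from -0.09 (Smad7) to 0.13 (Smad2), with adjusted p from 0.447 to 0.921 (limma). Smad4, the common partner, read 4352 and 4669 (controls), 4494 (TC) and 4417 (S2101), a difference of -0.02 whose 95% confidence interval ran from -0.18 to 0.14. Smad1, a BMP Smad, read 2856 and 2997 on the controls and 3042 and 2951 with TC and S2101, also with overlap (0.03; interval -0.13 to 0.20). The TGF-beta Smad Smad3 stood at 0.09 (-0.09 to 0.26), Smad5 at -0.02 (-0.21 to 0.16) and the inhibitory Smad7, itself a feedback target, at -0.09 (-0.38 to 0.20). Inhibitory Smad6 (137 and 194 on the controls, 117 and 163 with the inhibitors) and Smad9 were under the filter. Other bright probe sets of Smad1 (-0.04 and -0.28), Smad2 (-0.14) and Smad4 (0.04) had the opposite sign to the tested ones. A further bright set of Smad4 stood at -0.15, with overlapping groups. Signals measure transcripts and say nothing of Smad phosphorylation.

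Among proteins that hold or process ligands in the matrix, 1 of 6 tested rose and 1 fell. Ltbp2, a fibrillin-related protein of the latent TGF-beta binding family that does not itself bind latent TGF-beta, read 1395 and 1360.4 (controls), 1962 (TC) and 2305 (S2101). Both inhibitor arrays were above the controls, which lay close together (0.61 ± 0.09; 1.52-fold; adjusted p = 0.00348, limma). Fstl1, a secreted glycoprotein with a follistatin domain, first isolated as a TGF-beta inducible gene, fell from 16404 and 16907 to 10247.5 and 11545.5. Fstl1 dropped by 0.61 (SE 0.07; 1.53-fold; 0.000878), and its other bright probe set stood at -0.63.

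The rest of the latent TGF-beta binding family did not pass. Ltbp3 read 7995 and 9308 (controls), 7397 (TC) and 7916 (S2101) (-0.17 ± 0.08; adjusted p = 0.258, limma). Its other bright probe set stood at 0.00. Ltbp1 read 1244 and 1240.5 on the controls and 923 with TC, but 1293 with S2101, so the inhibitor arrays fell on either side of the controls (-0.18 ± 0.13; 0.492). Ltbp4 stood at -0.31 ± 0.18 and the procollagen and chordin protease Bmp1, which is not a BMP ligand, at -0.08 ± 0.09. The matrix protein gene Tgfbi was dim, at 29.0 to 46.5 on the 4 arrays.

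The secreted antagonists also moved apart. Grem1, gremlin 1, which binds BMP2, BMP4 and BMP7, read 2048 and 1764 (controls), 3071 (TC) and 3322 (S2101). All inhibitor values lay above all control values (0.73 ± 0.09; 1.66-fold; adjusted p = 0.00108, limma). Fst, follistatin, which neutralises activins and myostatin, fell from 1839 and 1708 to 1211 with TC and 1471 with S2101.

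The Fst groups did not overlap, and Fst dropped by 0.40 (SE 0.10; 1.32-fold; adjusted p = 0.0443, limma), near the threshold. Its other bright probe set stood at -0.17, with overlapping groups (906 and 555 on the controls, 524 and 743 with TC and S2101). The Fst call ended without control 1 (-0.34; 0.149), without the TC array (-0.26; 0.153), without an intensity trend (0.119), without the filter (0.155) and with averaged probe sets (-0.28; 0.349). Fstl3, a related activin and myostatin binder, stood at -0.17 ± 0.19. Noggin, Nog, was dim, at 2.48 to 39.6.

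Among nuclear co-repressors and targets, Id2 rose and 5 did not pass. The Id proteins block basic helix-loop-helix factors such as MyoD, and Id1, Id2 and Id3 are known as early BMP targets. Id2 read 1498 and 1735 (controls), 2328 (TC) and 2701 (S2101), with both inhibitor arrays above the controls (0.62 ± 0.10; 1.54-fold; adjusted p = 0.00433, limma), and its other bright probe set stood at 0.67. Id1 read 1048 and 1084 (controls), 1299 (TC) and 1177 (S2101), also without overlap but not past the test (0.21 ± 0.09; 0.222).

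Id3 read 863 and 1134 on the controls and 886 and 1208 with TC and S2101. Its groups overlapped, although S2101 lay above both controls (0.06 ± 0.15; adjusted p = 0.866, limma). Whether Id2 differed from Id1 or Id3 was not tested. The Smad co-repressors Ski (0.24 ± 0.12), Skil (-0.10 ± 0.07) and Tgif1 (-0.01 ± 0.08) did not pass. Skil read 4461 and 4303 on the controls and 4063 and 4115 with the inhibitors, and Tgif1 read 1493 and 1567 against 1508 and 1526.

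**Figure D2:**
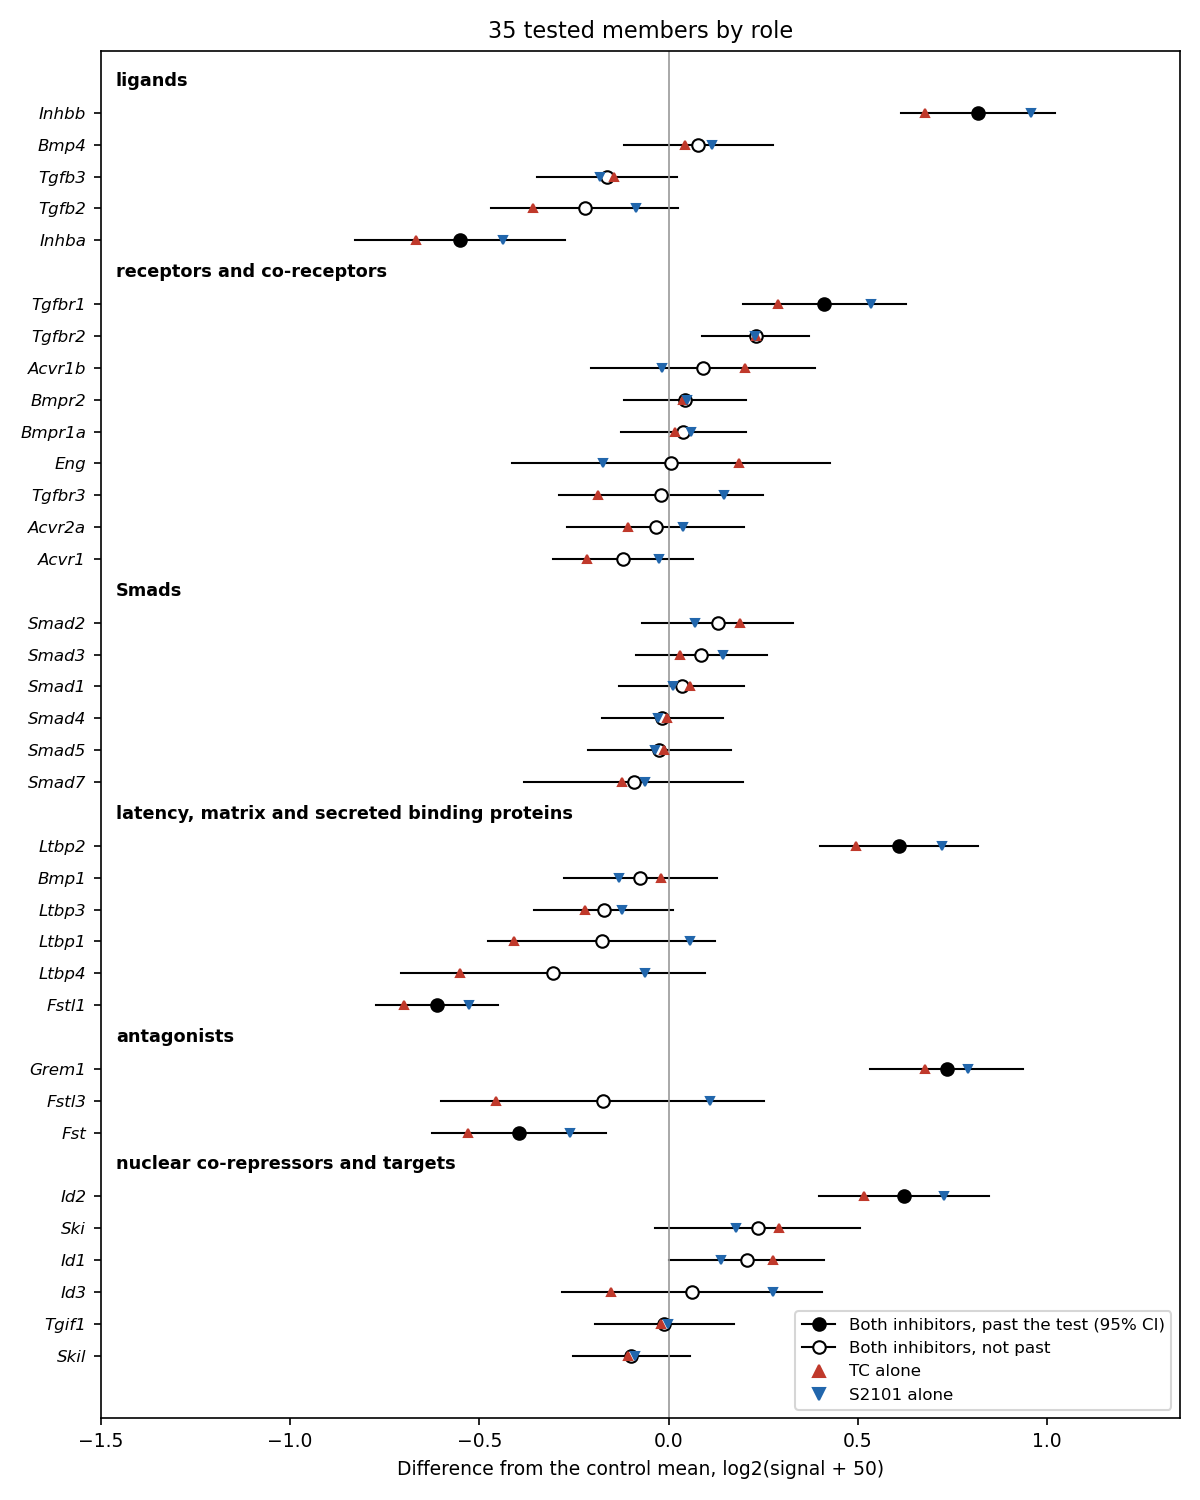
Difference from the control mean on the log2(signal + 50) scale for the 35 tested members, grouped by role. Circles with 95% confidence intervals give both inhibitors together (filled where past the test, 8 members), and triangles give TC and S2101 alone; the Smad intervals all include 0.

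The 12 members under the filter had signals from 2.19 to 205, and in none of them did both inhibitor arrays lie beyond both controls. Fitted without the filter, they had unadjusted p from 0.316 upwards (limma). Their levels wander between arrays: Bmp7 read 13.4 and 97.9 on the 2 controls. No change was found in them, which does not show that there was none.

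Taken as separate compounds in a fit with 3 groups, 8 members passed with TC (against 8.18% of all genes) and 6 with S2101 (against 6.71%). The same limit from the choice of members holds for these counts. Both comparisons use the same 2 controls, and each lone array is assumed to vary like the controls, since the fit has 1 residual degree of freedom. With TC, Inhbb (0.68 ± 0.07), Grem1 (0.68 ± 0.10), Id2 (0.52 ± 0.10) and Ltbp2 (0.49 ± 0.09) were higher, and Fstl1 (-0.70 ± 0.07), Inhba (-0.67 ± 0.14), Fst (-0.53 ± 0.10) and Ltbp1 (-0.41 ± 0.10) were lower. With S2101, Inhbb (0.96), Grem1 (0.79), Id2 (0.73), Ltbp2 (0.72) and Tgfbr1 (0.53) were higher and Fstl1 (-0.53) was lower. Without the filter on dim genes no member passed for either compound (limma), and without an intensity trend none passed for TC and only Inhbb for S2101. At an unadjusted p under 0.05, 16 of 35 members were found for TC, against 23.6% of all genes, and 9 of 35 for S2101, near the 20.8% of all genes.

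Set directly against each other, the compounds gave no member past the test (limma; 1 pair of compounds), where 0.033% of all genes passed. The widest gap was that of Fstl3, which read 229 with TC and 362 with S2101, beside 370.5 and 297 on the controls (TC minus S2101, -0.56; 95% interval -1.03 to -0.09; adjusted p = 0.508, limma). Ltbp1 had a gap of -0.47 (-0.73 to -0.20; adjusted p = 0.313, limma) and Inhbb one of -0.28 (-0.47 to -0.09; 0.426). For Grem1 the interval ran from -0.37 to 0.15 and for Fstl1 from -0.35 to 0.00, so gaps of that size remain possible. An unadjusted p under 0.05 was found for 8 of the 35, all lower with TC (Inhbb, Tgfbr1, Tgfbr3, Ltbp1, Ltbp4, Fst, Fstl3 and Id3), against 4.27% of all genes in that direction, a count made after the values were seen. Each compound is 1 array at an unstated dose, so array, dose and compound cannot be told apart.

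**Figure D3:**
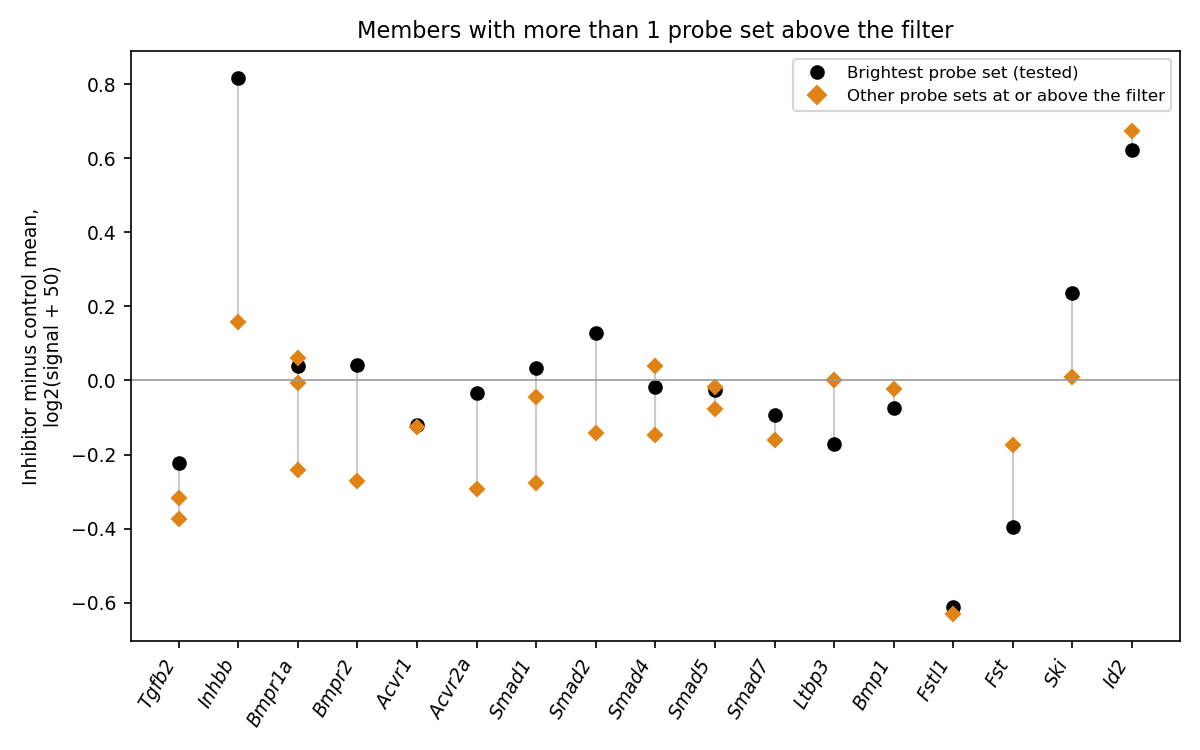
Inhibitor minus control mean on the log2(signal + 50) scale for the 17 tested members with more than 1 probe set at or above the filter; circles mark the tested probe set and diamonds the others. Of the 23 other probe sets, 15 have the sign of the tested one, and the 4 that belong to Inhbb, Fstl1, Fst and Id2 all do.

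Other genes of the pathway, from lists chosen with earlier results of these data known, were read the same way. None of 16 further ligands was bright enough to test. For inhibitors against controls, 22.3% of all genes had an unadjusted p under 0.05. Of 11 further receptors and co-receptors 6 were tested and 0 passed, with 3 at an unadjusted p under 0.05 (limma; median 0.19). The BMP co-receptor Rgma had the widest difference (0.41 ± 0.15; adjusted p = 0.127, limma). Of 25 intracellular regulators in addition to Smads, Ski, Skil and Tgif1, none passed (limma; 2 of 25 with an unadjusted p under 0.05, beside that share; median 0.04), and the endosomal Smad anchor Zfyve16 stood farthest from 0 (-0.36 ± 0.14; 0.150).

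Of 10 tested extracellular modulators, 3 fell and 1 rose (median -0.08), beside 3.74% of all genes that passed as lower and 4.28% as higher. The TGF-beta binding proteoglycans Bgn (biglycan, -0.31 ± 0.06; adjusted p = 0.0112, limma) and Dcn (decorin, -0.23 ± 0.06; 0.0480) fell, as did Thbs1, the latent TGF-beta activator thrombospondin 1 (-0.26 ± 0.07; 0.0463). Itgb8, an integrin subunit that also frees latent TGF-beta, rose (0.38 ± 0.10; 0.0388). None of these calls held without the filter on dim genes (adjusted p from 0.113 for Bgn to 0.171 for Dcn, limma). Fmod (fibromodulin), a related proteoglycan named with its values known, was not tested because its low inhibitor signals brought its mean to 114, under the filter. Fmod read 205 and 214 on the controls and 18.6 and 19.0 with TC and S2101, and in the fit without the filter its difference was -1.92 ± 0.20 (adjusted p = 0.0165, limma), the widest in the list. Other dim genes, also named with values known, moved either way without passing in that fit. Chrd (95.4 and 104 against 168 and 166) and Kcp (79.8 and 107 against 142 and 183) were higher. Dand5 (55.0 and 65.5 against 38.8 and 35.8) was lower. Of the tested genes, Nbl1 was higher on both inhibitor arrays but did not pass (0.35 ± 0.10; adjusted p = 0.0663, limma).

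Of 16 tested genes known to be induced by TGF-beta, 5 fell, 1 rose and 10 did not pass (median -0.10). Over all genes, 3.74% passed as lower and 4.28% as higher. Tnc (-1.71), Ccn2 (-1.67), Tagln (-1.60) and Col1a1 (-1.19) had the widest differences, and the fifth was Postn (-0.95). Tnc, Col1a1 and Postn encode matrix proteins, but Fn1 (0.04), Col3a1 (-0.14) and Col1a2 (-0.22; adjusted p = 0.0647, limma), also matrix genes of the list, did not pass, nor did the actin gene Acta2 (-0.16). The list, Postn included, was drawn up with earlier results of these data known, the falls of Tnc, Ccn2, Tagln and Col1a1 among them. The transcription factor Snai2 rose (0.29 ± 0.07; adjusted p = 0.0305, limma), a call that ended without the filter on dim genes (0.117). The 5 falls still passed in that fit. Pmepa1 (-0.07) and Klf10 (0.07), early TGF-beta targets, did not pass and were picked with their values known. Only 3 of 11 BMP induced genes were tested, Hey1 (-0.02), Hes1 (-0.02) and Msx1 (-0.14), and 0 passed, with 0 at an unadjusted p under 0.05 (limma).

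**Figure D4:**
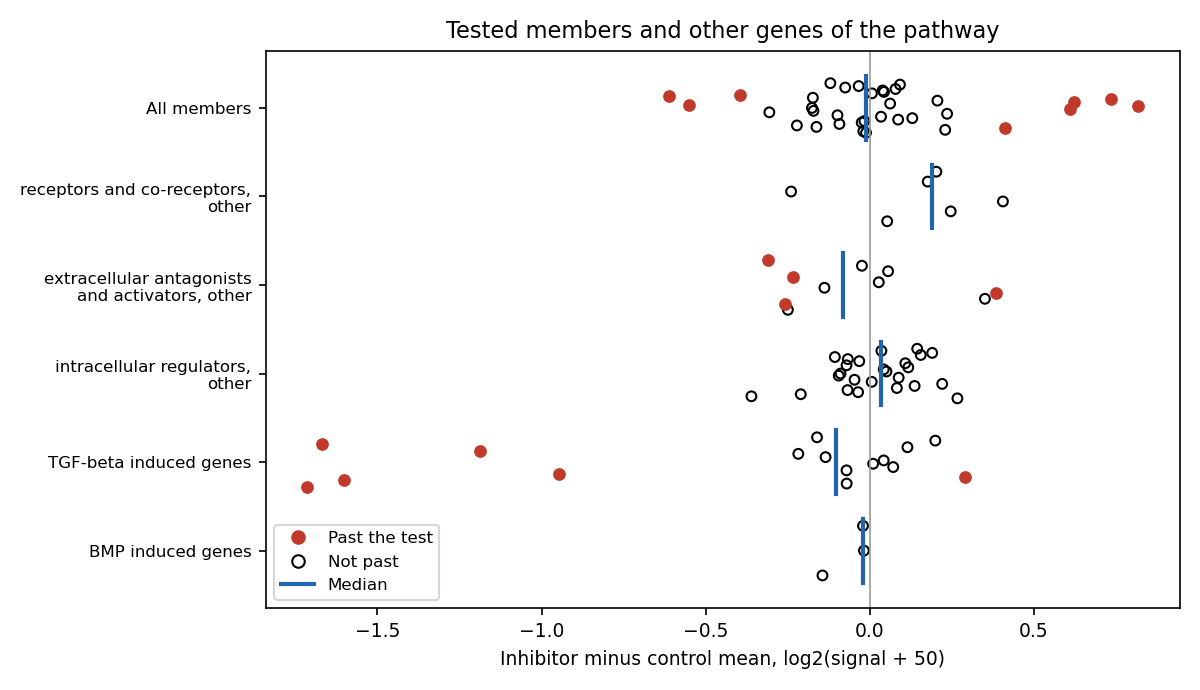
Inhibitor minus control mean on the log2(signal + 50) scale for tested members and for the other pathway lists; each point is a gene, filled where past the test, and the bar is the list's median. The 5 genes of the TGF-beta induced list that fell lie between -0.95 and -1.71, while its median is -0.10.

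Markers bear on the cells behind these values. The 6 muscle markers (Myod1, Myog, Des, Ckm, Myh3, Actc1) were all bright, with summed signals of 55699 and 57493 (controls), 55605 (TC) and 51153 (S2101), and 0 passed (limma; 2 with an unadjusted p under 0.05; differences from -0.23 to 0.18), although Actc1 was lower with S2101 alone (-0.28; adjusted p = 0.0362, limma). The 5 fibroblast markers summed to 18209 and 17917 on the controls and 13997 and 14708 with TC and S2101; Col1a1 and Dcn fell, Pdgfra (0.17) and Lum (-0.39) did not pass, and Thy1 was dim. The 3 osteoblast markers Sp7, Alpl and Ibsp were under the filter, summing to 188 and 185 on the controls and 120.1 and 185 with the inhibitors. Adipocyte (3), endothelial (4) and leukocyte (4) markers were under the filter except Cd14 (0.07; adjusted p = 0.828, limma). Dcn alone gave 14781 and 14754 of the fibroblast sums on the controls, and Dcn and Col1a1 are also counted in the pathway lists above. The part of the fibroblast markers in the changes of members was not tested, and in bulk RNA fewer cells of a type and less RNA per cell cannot be told apart. Gapdh, used to judge RNA integrity, had 3′ over 5′ signal ratios of 0.743 to 0.790.

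The 8 calls differed in how far they held under the alternatives. Inhbb, Grem1, Ltbp2 and Fstl1 passed under all 12 alternatives, including each array left out, and Id2 under 11 of 12, missing without the filter on dim genes (adjusted p = 0.0519, limma). Tgfbr1 passed under 7 of 12, Fst under 7 of 12 and Inhba under 6 of 11.

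**Figure D5:**
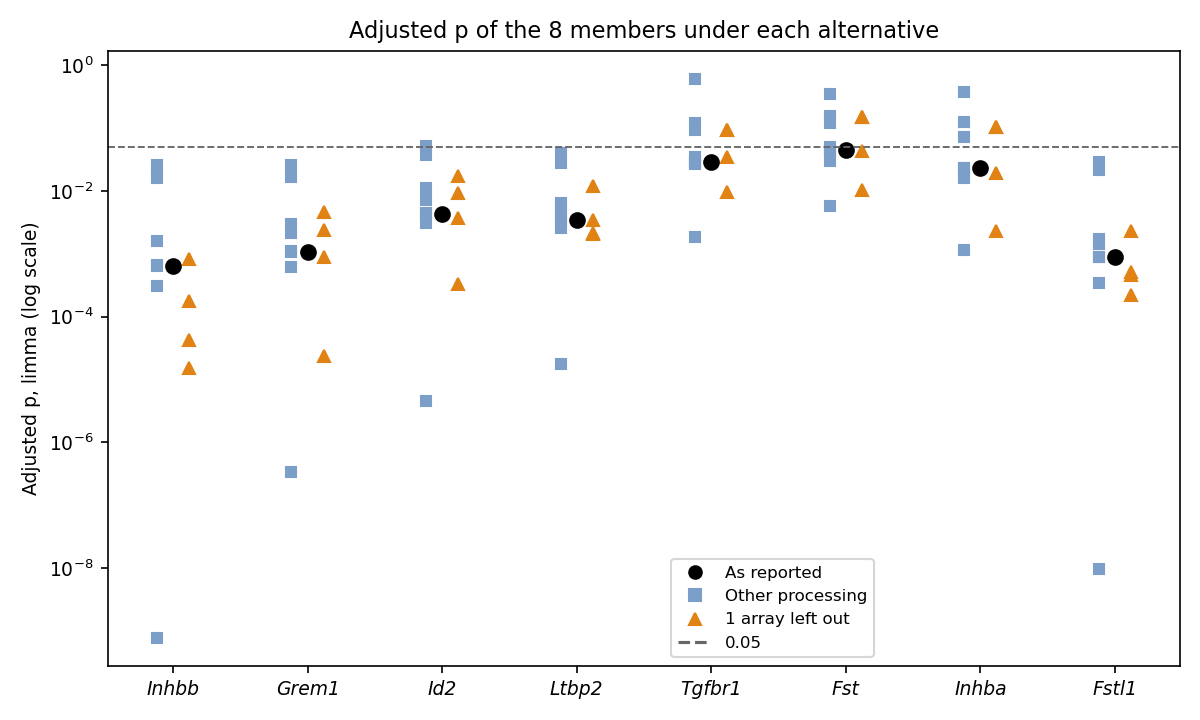
Adjusted p (limma, log axis) of the 8 members past the test for inhibitors against controls, as reported (circle), under other processing (squares) and with 1 array left out (triangles); the dashed line is 0.05. All marks of Inhbb, Grem1, Ltbp2 and Fstl1 lie below the line, while 1 of Id2 and some of Tgfbr1, Fst and Inhba lie above it.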

How the data were processed

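Total RNA (250 ng) was labelled as biotinylated cRNA for Affymetrix arrays, per the labels' protocols. The authors deposited 1 intensity value per probe set and array, a linear MAS5 signal, and MAS5 and Affymetrix Expression Console are named in the submitters' processing notes without versions. The deposited intensity values have a 2% trimmed mean of 500.0 on each array. No detection calls or scan dates were used. Of 45101 probe sets, 34945 carried 1 symbol, 932 several and 9160 none listed, and 64 were array controls.

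Signals were turned into log2(signal + 50) with no further normalization. Genes (9097 of 18193) were fitted together with limma 3.58.1 in R 4.3.3 (intensity trend, Benjamini-Hochberg at 0.05). TC and S2101 were pooled against the 2 controls because the descriptions number both as LSD1 inhibitors; a fit with 3 groups gave each compound. The fits were tried on simulated data with the same noise for every gene and the same change for both compounds. Such data do not give the error rate on these arrays. The members and lists were chosen with earlier results of these data known. Signals per array are given for members past any test, for named ligands and Id genes and for the 2 brightest members of each role; from each further list up to 4 passing genes, or else the farthest from 0, are named. Promoters came from RefSeq (GRCm38.p6); 34 of 47 members matched. Alternatives covered the offset, filter, trend, probe sets, normalization, each array left out and a replicate block.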

Additional observations from a re-analysis of the deposited data

How the results depend on the processing

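For inhibitors against controls, the 8 member calls became 4 without the filter on dim genes and 5 without an intensity trend or with averaged probe sets, ranged from 5 to 8 when 1 array was left out, and were 8 or 9 under the other alternatives. Among the left-out arrays the lowest count came without control 1, which ended Fst, Inhba and Tgfbr1. For TC the 8 calls became 0 without the filter and 0 without the trend, and for S2101 the 6 calls became 0 and 1 (limma). No called member changed direction in any alternative run. Tgfbr2 was gained with quantile normalization and the stricter filter, Ltbp1 without the S2101 array, and Ltbp4 (TC) and Acvr1b (S2101) with averaged probe sets. Over all genes the 729 calls became 266 without the filter, 423 without the trend, 478 with averaged probe sets and 457 with the stricter filter; the 744 for TC became 12 without the filter and 83 without the trend, and the 610 for S2101 became 8 and 112. The 3 genes between compounds became 0, 0, 22 with averaged probe sets and 13 with quantile normalization. Leaving out a control from the fit with 3 groups leaves no residual degree of freedom and was not run.

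The descriptions number TC and S2101 as inhibitors 1 and 2 beside controls 1 and 2, but nothing says that a number marks a shared culture. Deviations of same-numbered arrays correlated at 0.065 across genes. With a replicate block 9 members passed (Tgfbr2 was added) and 1223 of all genes. The 12 members under the filter were read by signal and in the fit without the filter, where none passed (limma; 0 with an unadjusted p under 0.05).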
